A study of Mus musculus with 2 samples.

Results

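Mir139 is the gene of the hairpin precursor that gives rise to miR-139-5p and miR-139-3p. It lies inside Pde2a, which encodes a phosphodiesterase that degrades cyclic AMP and cyclic GMP and is itself stimulated by cyclic GMP. The gene was chosen by its symbol as 1 of the 2202 microRNA genes counted in the adrenal gland. It was followed in the reads on its own strand, and its place was sought among the 769 microRNA genes that lie in introns of protein-coding genes. The choice was made with its level already known, so the levels and ranks given here are descriptions and carry no test.

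The study measured microRNAs in whole adrenal glands of female B6CASTF1/J mice aged 10 days, first-generation hybrids of the C57BL/6J and CAST/EiJ strains that carry no engineered allele and received no treatment named in the labels. The 2 libraries form a single group, replicate 1 from the animal numbered 3 and replicate 2 from the animal numbered 4. Both carry the same donor entry, and only the animal numbers mark them as separate animals. The spread between them may be partly technical. No condition was set against another.

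A microRNA inside a protein-coding gene is often cut from the same primary transcript as the mRNA of its host, although some have a promoter of their own. The Drosha complex releases the hairpin from the intron, Dicer removes the loop, and 1 arm is loaded into an Argonaute protein, where bases 2 to 8 (the seed) pair with target mRNAs. Pde2a is known for its high expression in the zona glomerulosa, the outer zone of the adrenal cortex that makes aldosterone, where it lowers cyclic AMP when atrial natriuretic peptide raises cyclic GMP. miR-139-5p is known mainly as a microRNA whose loss accompanies several human cancers. In human adrenocortical carcinoma, however, miR-139-5p itself, and not its loss, has been tied to aggressive disease. Pde2a mRNA and aldosterone were not measured in these libraries.

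Both mature products of Mir139 are shown because the counts do not separate them, with the seed in capitals, 5′ to 3′, from RefSeq on GRCm38.p6.
mmu-miR-139-5p: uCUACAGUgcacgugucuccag
mmu-miR-139-3p: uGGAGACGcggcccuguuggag
Mir139 hairpin, with both arms in capitals: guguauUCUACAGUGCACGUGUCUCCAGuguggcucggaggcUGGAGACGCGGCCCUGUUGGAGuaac

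The hairpin spans 68 nt at chr7:101475376-101475443 on the plus strand of mm10. Each mature product is 22 nt long, and 14 nt of loop separate them. In the predicted minimum free energy structure, 19 of the 22 bases of miR-139-5p pair with the miR-139-3p arm, and 6 of its 7 seed bases are paired. Among 1738 mature sequences of 1058 mouse microRNA genes in the RefSeq table, none from another gene shared the seed of either arm. The nearest other mature sequence differed from each arm at 9 positions, when both were aligned at base 1 without gaps and any difference in length was added. Of 141767 M21 transcripts searched, none outside Mir139 held either mature sequence exactly. Reads with several alignments were left uncounted in these tables, and Mir139 has no copy of either mature product in the sequences searched. Which genes those uncounted reads came from cannot be read from the tables.

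Mir139 sits early in its host by exon order, although past the middle of the gene by distance. Pde2a runs from 101421691 to 101512827 of chromosome 7, and Mir139 lies in an intron of all 4 of its protein-coding transcripts and of 10 of its 12 annotated transcripts, while the other 2 do not span it. In each protein-coding transcript it lies in intron 2, which is 29902 nt long, 23907 nt after the upstream exon and 5927 nt before the downstream exon. The hairpin starts 53685 nt from the start of the longest transcript and 24856 nt from the later start used by Pde2a-204. It overlaps no exon of any transcript on its strand. The M21 annotation also holds Gm45837, a protein-coding gene on the same strand that spans Pde2a, so Pde2a is not the only annotated host.

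**Figure D1:**
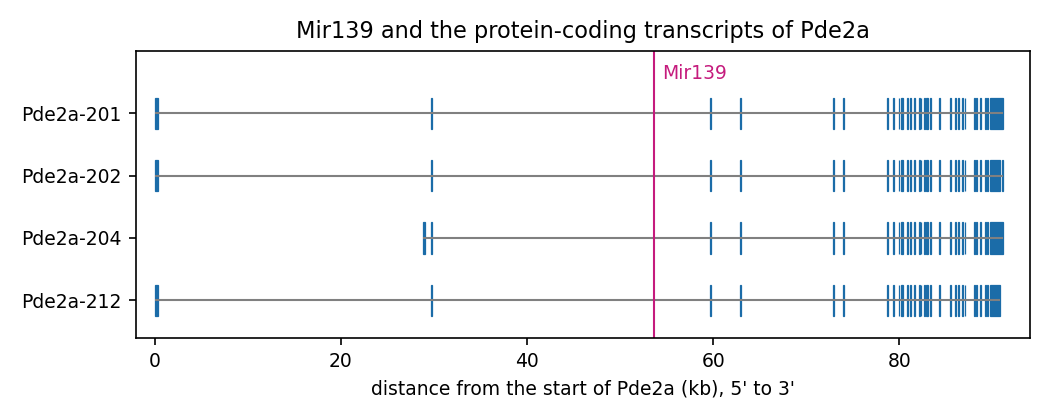
Exons (blue bars, widened by their outline) and introns (grey lines) of the 4 protein-coding transcripts of Pde2a, plotted by distance in kb from the start of the gene, with the position of Mir139 as a vertical line. Mir139 falls in the long intron 2 of every one of them, upstream of most exons.

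Mir139 is solitary on the chromosome. It is the 1 annotated microRNA gene inside Pde2a, and only 2 others lie within 1 Mb of it. Mir3102, in an intron of Arhgef17, was counted 318 times in replicate 1 and 486 times in replicate 2, and Mir139 exceeded it 162-fold and 193-fold in the same libraries. Gm22655, in an intron of Anapc15, had no count in either library, a result that still permits 1.48 CPM in replicate 1 or 0.935 CPM in replicate 2.

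Replicate 1 held 2023410 counts assigned to microRNA genes and replicate 2 held 3208821, so that 1 count was worth 0.494 and 0.312 CPM (counts scaled to a total of 1000000 assigned counts). Of all reads, 38.3% in replicate 1 and 37.5% in replicate 2 were assigned to microRNA genes. A further 25.0% in replicate 1 and 27.2% in replicate 2 aligned to several places, and the rest were also left unassigned. The 2 libraries differ in makeup: Mir126a of endothelial cells made up 17.8% of all microRNA counts in replicate 1 but 4.79% in replicate 2. A microRNA that defines the adrenal cortex is not among the markers used, so the tissue label could be set only against the neuroendocrine markers of the medulla. All 5 were at 10 CPM or more in both libraries, where 13.7% of the 2202 genes were. Liver Mir122, gonadal Mir202, the 3 red blood cell markers and the 4 leukocyte markers also reached this floor. Reaching it therefore does not single out the adrenal gland.

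Mir139 was among the most abundant microRNAs of the gland in reads aligned to a single place. It was counted 51477 times in replicate 1 and 93686 times in replicate 2, with no read on the opposite strand in either library. This came to 25441 CPM for replicate 1, with an exact 95% interval of 25224 to 25659, and to 29196 CPM for replicate 2, with an interval of 29013 to 29381. The mean was 27319 ± 2656 CPM (SD, n = 2). As a share of counts it stood at 2.73% ± 0.266 (SD, n = 2). The intervals cover counting error only, and the 2 libraries lay farther apart than counting error. In bulk tissue, more cells that make Mir139 and more Mir139 RNA per cell cannot be told apart.

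Its rank was 10 in both libraries, and 8 by mean CPM. Because reads with several alignments were left uncounted, microRNAs with similar copies may be undercounted in these ranks and in those of the intronic class. In replicate 1 it stood between Mir122 of hepatocytes (26733 CPM, 26511 to 26956) above it and Mir375 of neuroendocrine cells (24805 CPM, 24591 to 25020) below it, and neither interval overlapped that of Mir139. In replicate 2 it stood between Mir23a (29452 CPM, 29267 to 29638) and Mir10a (24962 CPM, 24792 to 25134). There Mir139 and Mir23a were not distinguishable by counting error, whereas Mir10a was clearly lower. By mean CPM the neighbours were Mir375 (28364 ± 5034) above and Mir127 (26446 ± 3807) below, each with SD over n = 2, and both lay within 1 SD of Mir139. The order of these 3 genes is therefore not settled by 2 animals.

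Among the 769 microRNA genes in introns of protein-coding genes, Mir139 ranked 4 in replicate 1, 5 in replicate 2 and 4 by mean CPM. Of these genes, 111 reached 10 CPM in both libraries and were counted as detected, 30 reached 1000 CPM in both, and 401 had no count in either. The detected members had a median of 233 CPM in replicate 1 against 230 CPM in replicate 2, which Mir139 exceeded 109-fold and 127-fold. Its share of all counts from intronic microRNAs was 4.90% in replicate 1, with an exact interval of 4.86 to 4.94%. In replicate 2 the share was 6.14%, with an interval of 6.10 to 6.18%. Intronic microRNAs as a whole took 51.9% and 47.5% of microRNA counts.

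**Figure D2:**
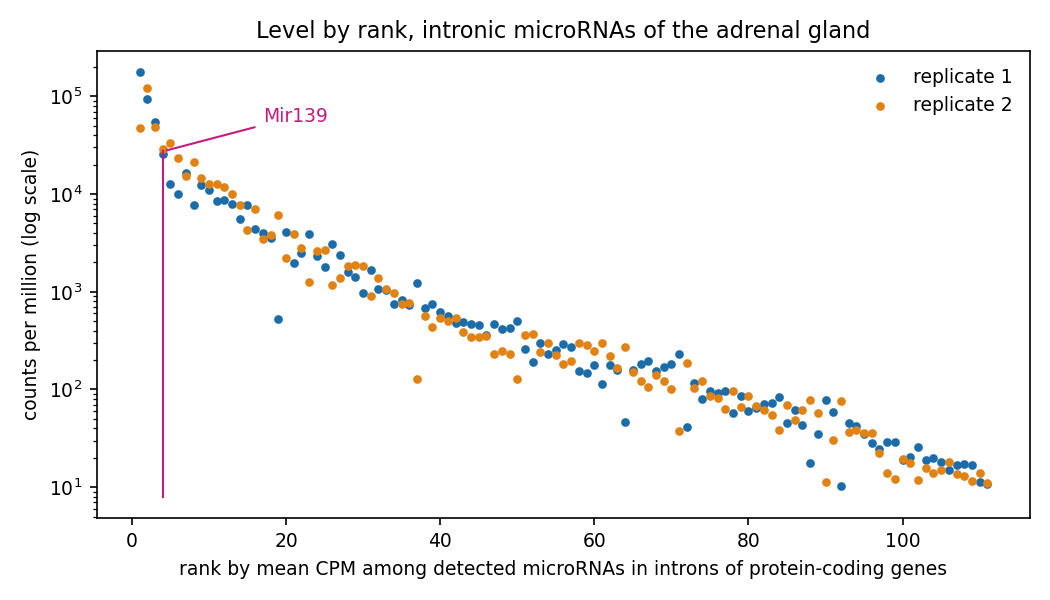
CPM on a log axis in replicate 1 (blue) and replicate 2 (orange) for the 111 detected microRNAs in introns of protein-coding genes, ordered by mean CPM, with Mir139 marked. Mir139 stands at rank 4, 109-fold above the median of the detected members in replicate 1 and 127-fold above it in replicate 2.

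The genes above Mir139 in this class have hosts of different kinds. Mir126a, in the endothelial gene Egfl7, was counted at 177728 CPM in replicate 1 but 47927 CPM in replicate 2. Mir378a, in the metabolic coactivator gene Ppargc1b, stood at 94651 and 120608 CPM in the same order. Mirlet7g, in Wdr82, stood at 54169 and 48930 CPM. All 3 exceeded Mir139 in both libraries, but by unequal margins: Mir139 was 0.143 times Mir126a in replicate 1 and 0.609 times in replicate 2, 0.269 and 0.242 times Mir378a, and 0.470 and 0.597 times Mirlet7g.

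The next genes down were Mir23b in 2010111I01Rik, Mir26b in the phosphatase gene Ctdsp1, Mir335 in the imprinted gene Mest, Mir10b in the Hoxd cluster, Mir99b in Spaca6 and Mir652 in Tmem164. Mir23b was the exception to the order, with 12712 CPM in replicate 1 but 33619 CPM in replicate 2, so that Mir139 was 2.00 times as abundant in replicate 1 and 0.868 times in replicate 2. Mir26b (9948 and 23149 CPM) and Mir335 (16496 and 15441 CPM) were below Mir139 in both libraries, as were Mir10b (7675 and 21089 CPM), Mir99b (12367 and 14723 CPM) and Mir652 (11085 and 12592 CPM). Mir139 held an almost constant proportion to Mir99b (2.06 and 1.98) and to Mir652 (2.30 and 2.32), ratios taken within a library and so independent of how totals are scaled. The intervals of the Mir652 ratio overlapped (2.26 to 2.33 and 2.29 to 2.35). Those of the Mir99b ratio did not (2.03 to 2.09 and 1.96 to 2.01). Over 2 libraries, a steady proportion only restates that the genes had similar log2 ratios of replicate 1 over replicate 2. These were -0.20 for Mir139, -0.25 for Mir99b and -0.18 for Mir652.

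**Figure D3:**
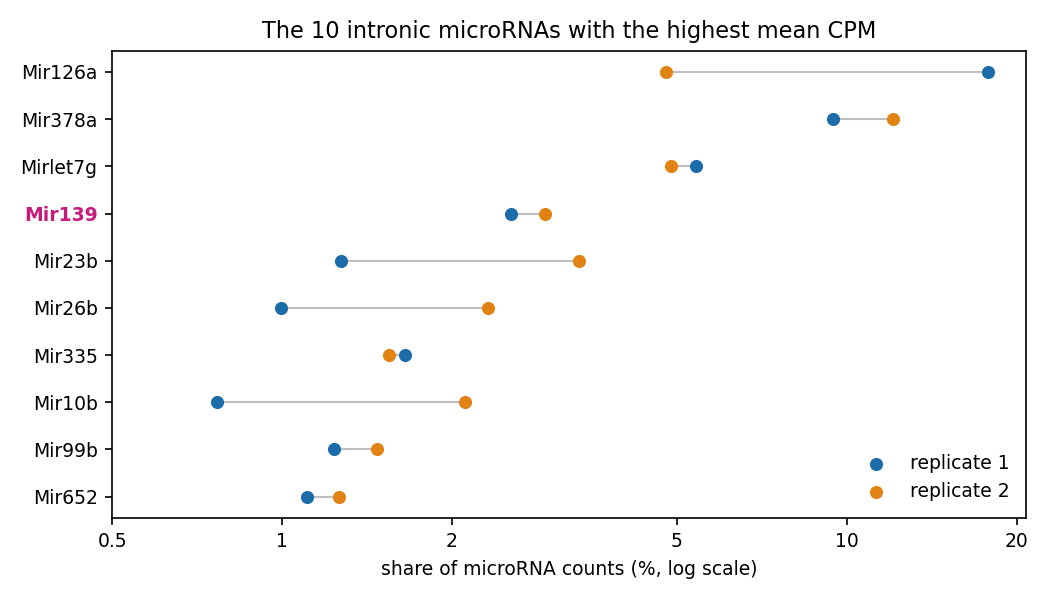
Share of microRNA counts, in percent on a log axis, in replicate 1 (blue) and replicate 2 (orange) for the 10 microRNAs in introns of protein-coding genes with the highest mean CPM. The points of Mir139 lie close together at 2.54% and 2.92%, those of Mirlet7g, Mir335 and Mir652 lie closer still, and those of Mir126a, Mir23b, Mir26b and Mir10b lie far apart.

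Mir139 differed little between the animals compared with other microRNAs. Its ratio of replicate 1 over replicate 2 was 0.871 (exact 95% interval 0.862 to 0.881), a log2 ratio of -0.20. Among the 302 microRNA genes at 10 CPM or more in both libraries, 59 (19.5%) differed at least 2-fold in either direction, and among the 111 intronic ones 21 (18.9%) did. The median size of the log2 ratio was 0.46 over all 302 genes and 0.46 over the intronic ones. Log2 ratios closer to 0 than that of Mir139 were found for 79 of the 302 genes, 28 of the 111 intronic genes and 3 of the 20 genes with the highest mean CPM. A ratio this small was thus shared by many detected microRNAs.

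The sign of this small difference depended on the total used. With the counts of Mir126a left out of both totals, an alternative chosen after the data were seen, Mir139 took 3.09% of the remaining counts in replicate 1 and 3.07% in replicate 2, and its log2 ratio was 0.013. This choice raises the log2 ratio of every gene by 0.21, so that the median of the 302 detected genes was 0.27 in place of 0.054, and Mir139 stayed as far below that median as before. With TMM scaling, which sets library totals by the bulk of genes, it was -0.25.

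**Figure D4:**
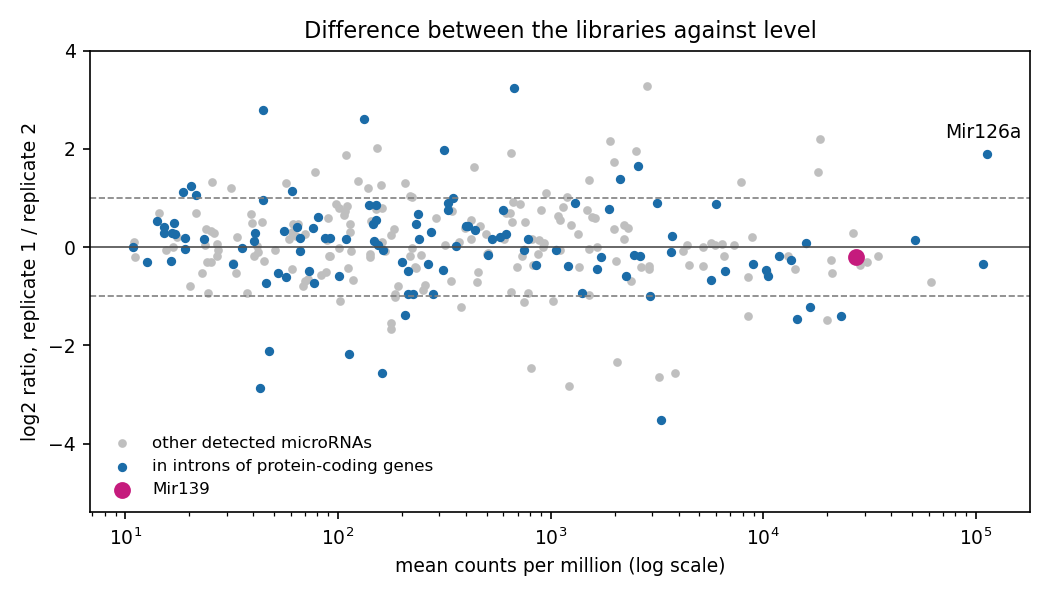
Log2 ratio of replicate 1 over replicate 2 against mean CPM (log axis) for the 302 microRNA genes at 10 CPM or more in both libraries, with those in introns of protein-coding genes in blue, the others in grey and Mir139 in magenta. Dashed lines mark a 2-fold difference. Mir139 lies close to 0 at -0.20, while Mir126a, the gene with the highest mean, lies at 1.89.

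The 5 microRNAs of any kind most like Mir139 over the 2 libraries, by Euclidean distance of log2(CPM + 1), were Mir375 (distance 0.13), Mir143 of smooth muscle (0.24), Mir127 of the imprinted Dlk1-Dio3 region (0.36), Mirlet7i (0.49) and Mir322 (0.55). None of the 5 lies in an intron of a protein-coding gene by the rule used. Within the intronic class the nearest were Mir23b (1.02), Mir335 (1.11), Mirlet7g (1.32), Mir26b (1.40) and Mir99b (1.43). With 2 libraries, this measure is set mainly by the level. Mir139 kept a nearly fixed proportion to Mirlet7i, at 0.779 in replicate 1 and 0.794 in replicate 2. This only restates that their log2 ratios of replicate 1 over replicate 2 were close, at -0.20 and -0.17.

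Markers of other cell types and organs differed between the libraries in both directions. Of the 2 endothelial markers, Mir126a was 3.71-fold higher in replicate 1, and Mir126b was at 3.95 CPM or less in both libraries. Liver Mir122 was 2.88-fold higher in replicate 1. The 5 striated muscle markers summed to 11312 CPM in replicate 1 against 4506 CPM in replicate 2. Nearly all of this was Mir206 (11177 and 4480 CPM), and 2 of the 5 were detected. The 3 red blood cell markers summed to 653 and 320 CPM. The 5 neuroendocrine markers summed to 28211 and 34978 CPM, most of it Mir375, but 3 of the 5 were higher in replicate 1 and the median log2 ratio was 0.16. The 5 smooth muscle and stromal markers summed to 31513 and 40245 CPM, most of it Mir143. Of the 4 detected, 2 were higher and 2 lower in replicate 1, with Mir214 at 3057 and 914 CPM and Mir145a at 897 and 5579 CPM. The 4 leukocyte markers summed to 1488 and 2451 CPM, the 4 kidney markers to 410 and 214 CPM, and gonadal Mir202 stood at 81.5 and 32.7 CPM. Of the 3 kidney markers detected, 2 were higher in replicate 1 and 1, Mir204, was lower (57.8 and 96.3 CPM). Mir199a-1 and Mir208a had no count in replicate 1, and each had at most 2 counts in replicate 2. Because reads with several alignments were left uncounted, markers with similar copies, such as Mir199a-1, may be undercounted. Their low counts and the sums that include them therefore need not show low levels. The part of these cells in the level of Mir139 was not tested.

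Mir139 was set beside a chosen list of 10 microRNAs that earlier work tied to adrenocortical tumours. Its place beside them depends on which genes were listed. All 10 genes of that list were detected, where 13.7% of the 2202 genes were, and 1 of them, Mir375, had a higher mean than Mir139. Mir335 followed, then Mir21a (4685 CPM in replicate 1 against 12350 CPM in replicate 2), a microRNA that promotes growth in many tumours. Mir195a, whose products can restrain the cell cycle, stood at 5135 and 525 CPM, and Mir483, in an intron of the growth factor gene Igf2, at 3068 and 1173 CPM. Mir214, Mir497 (1136 and 669 CPM), Mir34a (888 and 625 CPM), Mir503 (870 and 462 CPM) and Mir210 (134 and 148 CPM) were lower still. Of the 10, 7 were higher and 3 lower in replicate 1, with a median log2 ratio of 0.63, against 0.054 over all 302 detected genes. Among the 111 detected intronic genes, 59 were higher and 52 lower in replicate 1. Whether the listed genes differ from the others in direction was not tested.

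The hairpin of Mir139 was short and rich in G and C for its class. RefSeq hairpins were found for 89 of the 111 detected intronic microRNAs. Mir139 has 58.8% G and C against a median of 50.5% over the 89, 73 of which have less. Its length of 68 nt compares with a median of 85 nt, and 7 of the 89 are shorter. The predicted folding energy was -0.52 kcal per mol per nt for Mir139 and -0.44 at the median, with 11 of the 89 lower. Of the 111 detected intronic microRNAs, 76 had no other microRNA gene within 10 kb on their strand, as Mir139 does, and 3 of those 76 had a higher mean CPM. The shortest protein-coding intron that holds Mir139, in Gm45837, is 19829 nt long, against a median of 6674 nt over the 111, with 81 shorter, and its distance to the nearest exon is 5927 nt against a median of 994 nt, with 84 of the 111 nearer to an exon.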

How the data were processed

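MicroRNA-seq reads of each library were aligned to mm10 and counted per microRNA gene of GENCODE M21 by the authors, who deposited raw counts for each library. Build and annotation are named in the descriptions that accompany each deposited table. The aligner was not given in the sources used here, nor was the counting program. By their values, the deposited count columns hold reads irrespective of strand, on the gene's strand (used here) and on the opposite strand. The 4 summary lines stayed out of totals.

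All 2202 identifiers matched M21. A microRNA gene was called intronic when it lay in an intron of at least 1 protein-coding transcript on its strand and over no exon of one. CPM was computed over assigned counts, and detection needed 10 CPM in both libraries. Intervals are exact 95% binomial intervals (Clopper-Pearson), and a count of 0 allows up to 3 counts. The labels name no molecular identifiers. Ratios between libraries use no pseudocount. The list entries Mir497a and Mir486a were matched through RefSeq synonyms to Mir497 and Mir486.

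Gene and lists were chosen with earlier results of these data known. Named genes were Mir139, the 10 intronic genes with the highest mean CPM, the 5 nearest in level, rank and locus neighbours, and the lists (tumour-linked genes and cell type markers). Mir126b, Mir199a-1 and Mir208a are marker genes. Tools were SciPy 1.17.1, pandas 2.3.3 and Python 3.11.15, RNAfold 2.7.2, and R 4.3.3 with edgeR 4.0.16 and DESeq2 1.42.0 for scaling factors. Alternatives covered strand, scaling, class definition, the CPM floor and each library alone.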

Additional observations from a re-analysis of the deposited data

How the results depend on the processing

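The mean of Mir139 ran from 25441 to 29196 CPM, its share of intronic counts from 4.90% to 6.14%, its rank among intronic microRNAs from 4 to 5 and the number of detected intronic microRNAs from 116 to 118 when each library was left out in turn, while its rank among all microRNAs was 10 in either library alone against 8 by the mean. Counted irrespective of strand, where reads of overlapping opposite genes such as Mir126a were set aside by the authors, Mir139 reached 36790 CPM, rank 6 among all and rank 2 among intronic microRNAs, 10.7% of intronic counts and a log2 ratio of -0.0054. Scaled to all reads of the library in place of assigned counts, it stood at 10351 CPM with a log2 ratio of -0.17, and with Mir126a left out of the totals at 30803 CPM with a log2 ratio of 0.013. The log2 ratio was -0.25 with TMM scaling and -0.28 with DESeq2 size factors, which kept the mean CPM within 1 SD. Both kinds of factor were computed without the 10 CPM floor, so genes with few counts entered them. When an overlap with an exon of any transcript was barred, Mir126a left the class, and Mir139 ranked 3 with 7.55% of its counts. A floor of 100 CPM left 70 intronic microRNAs, and at least 1 count in both libraries left 260. The other class definitions tried, and the pseudocount of 1 CPM, moved no value of Mir139 beyond the spread between the libraries. Depth did not limit the level of Mir139, and 2 libraries limit what can be said of its spread.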
